A study of Caenorhabditis elegans with 2 samples.

Results

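The regions described here were the coding-exon regions of a ChIP-seq experiment on the C. elegans transcription factor LIM-6: 1626 of the 25887 regions in the authors' relaxed list of both libraries pooled, or 6.28%. A relaxed list keeps weak regions and background beside strong peaks, so that the agreement of libraries can be judged afterwards. A region was taken when its summit, the position of highest signal, lay in a coding segment of a protein-coding gene and its signal value was 30 or more. Summits from 1000 bp upstream to 500 bp downstream of a protein-coding transcript start were left out, as were summits within 250 bp of a tRNA gene or 500 bp of a snoRNA or snRNA gene. The signal and the coding position therefore chose the regions and are given below as descriptions. The same position rule without the signal minimum held 4342 regions. The 2716 of them with a signal under 30 served as the main comparison, and the coding bases in which a summit could have been taken, 16.45 Mb, as the background.

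Both libraries came from strain OP388, whose labels give the genotype unc-119(ed3) III with the transgene wgIs388. These worms express LIM-6 with a C-terminal GFP-FLAG tag, and chromatin was precipitated with an antibody to GFP. The samples were whole hermaphrodites at the late embryonic stage, 5 hours after synchronization by egg bleaching, and the labels call the 2 libraries biological replicates. The labels name neither the cells in which the fusion protein was made nor an untagged strain, and the control libraries were not analysed here. With 2 libraries of 1 kind and no contrasted condition, no test was made, and intervals below are exact (Clopper-Pearson) 95% binomial intervals that cover counting error over regions only.

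LIM-6 is a LIM homeodomain protein, a family in which paired zinc-binding LIM domains sit beside a homeodomain that contacts DNA, often at sites with a TAAT core. In C. elegans it is known for its part in the differentiation of particular neurons, among them GABAergic neurons. Transcription factors are best known for binding promoters and enhancers, which mostly lie outside coding exons. Cuticle collagens, which come up repeatedly below, are secreted by the epidermis and built of repeats in which glycine codons recur at a fixed spacing (GGN, N being any base) and many others are proline codons (CCN), which makes their coding sequence rich in G and C.

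The 6 regions of highest pooled signal were also the only ones of the 1626 in the authors' reproducible list. They lay in unc-1, golg-4, mnk-1, col-91, inpp-4B and rol-1. The reproducible list held 570 of all 25887 pooled regions (2.20%). Its lowest signal was 80.03, so all 570 lay among the 10647 pooled regions of signal 30 or more. No other region of the 1626 reached 80.03, so the match with the highest signals restates signal height. The 101 bases centred on each of the 6 summits are printed to show what these summits lie on. Collagen repeats run along the whole window in col-91 and up to about its centre in rol-1. The other 4 windows hold unrelated coding sequence. Sequences are from the RefSeq genome of build WBcel235 (ce11), on the coding strand, with in-frame GGN codons in capitals.
unc-1, chrX:1058082-1058182, minus strand: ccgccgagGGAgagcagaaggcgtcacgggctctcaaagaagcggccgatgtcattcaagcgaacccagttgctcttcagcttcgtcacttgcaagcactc
golg-4, chrIII:3424048-3424148, plus strand: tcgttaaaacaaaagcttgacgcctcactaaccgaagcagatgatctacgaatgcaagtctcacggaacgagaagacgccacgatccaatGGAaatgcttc
mnk-1, chrII:10547375-10547475, minus strand: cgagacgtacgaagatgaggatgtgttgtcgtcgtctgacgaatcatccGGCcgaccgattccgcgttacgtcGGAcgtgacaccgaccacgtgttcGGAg
col-91, chrIII:8262738-8262838, minus strand: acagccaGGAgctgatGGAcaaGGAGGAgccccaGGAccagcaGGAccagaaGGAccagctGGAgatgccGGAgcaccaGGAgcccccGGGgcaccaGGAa
inpp-4B, chrIII:10262879-10262979, minus strand: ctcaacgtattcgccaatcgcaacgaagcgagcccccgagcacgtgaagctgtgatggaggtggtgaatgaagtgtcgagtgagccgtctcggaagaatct
rol-1, chrII:12175445-12175545, plus strand: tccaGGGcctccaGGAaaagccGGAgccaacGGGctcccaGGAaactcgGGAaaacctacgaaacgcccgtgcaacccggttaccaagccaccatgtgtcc
Of the 33 complete codons in each window, 12 were GGN in col-91 and 6 in rol-1, against 3 in mnk-1, 1 in unc-1, 1 in golg-4 and 0 in inpp-4B. GC content was 66.3% and 61.4% in the col-91 and rol-1 windows, and it ran from 46.5% (golg-4) to 58.4% (unc-1 and mnk-1) in the other 4.

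Signal values are those of the authors' peak caller, whose scale is not given in the sources used here, and pooled and single-library values cannot be set against each other. The highest region lay in coding exon 5 of 6 of unc-1, which encodes a stomatin-like membrane protein, with a pooled signal of 90.3 and library signals of 34.9 (replicate 1) and 57.2 (replicate 2). The region in golg-4, which encodes a GRIP-domain protein, had a pooled signal of 89.1 and library signals of 36.2 and 49.7. In mnk-1, a MAP kinase-interacting protein kinase gene, the values were 84.8 in the pooled list, 49.9 in replicate 1 and 37.2 in replicate 2. Replicate 2 was the higher library in unc-1 and golg-4, and replicate 1 in mnk-1. The cuticle collagen gene col-91 had 84.0 in the pooled list, 37.6 in replicate 1 and 43.9 in replicate 2. For inpp-4B, whose product has a PH domain, the pooled signal was 83.6, with 51.92 in replicate 1 and 31.95 in replicate 2. The region in rol-1, a cuticle collagen gene, had a pooled signal of 82.9, with 33.3 in replicate 1 and 53.0 in replicate 2. All 6 had a region in both libraries, and neither library was the higher throughout.

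Below these came the cuticle collagen genes ram-2 (77.9), dpy-17 (76.9) and col-95 (74.5) by pooled signal. They were followed by picd-1 at 72.1, a gene named for binding the Axin homologue PRY-1, and tim-1 at 72.0, which encodes the C. elegans Timeless homologue. The zinc finger gene ztf-6 had 71.7, and swsn-1, which encodes a core subunit of the SWI/SNF chromatin remodelling complex, had 71.6. The remaining 7 of the highest 20 were grld-1, col-34, col-81, col-152, mltn-3, col-139 and C29H12.6, with pooled signals between 67.3 and 70.95. In grld-1, which encodes a protein with an RNA recognition motif, replicate 1 had 13.98 and replicate 2 had 41.8, the widest gap of the 20. Cuticle collagen genes held 9 of the highest 20 regions, 19 of the highest 50 and 31 of the highest 100.

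**Figure D1:**
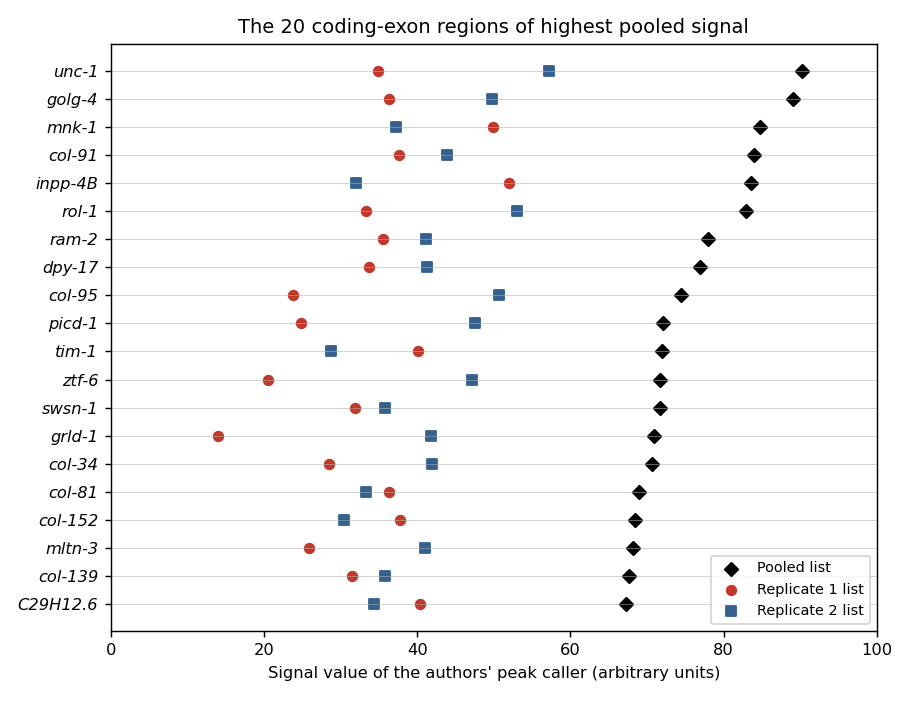
Signal value (arbitrary units, horizontal axis) of the 20 coding-exon regions of highest pooled signal, 1 row per region named by its gene, in the pooled list (diamonds), replicate 1 (circles) and replicate 2 (squares). Each region has a value in both libraries, and the order of the libraries changes from gene to gene, from 34.9 and 57.2 in unc-1 to 51.92 and 31.95 in inpp-4B.

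Most of the 1626 regions were weak. Their median pooled signal was 35.9, with an interquartile range of 32.3 to 41.1, against a median of 24.3 in the coding-exon regions under 30. Signals of 30 or more were held by 37.5% of the regions in coding exons, against 41.1% of all pooled regions. Just inside the minimum stood camt-1 and ptr-16 (both 30.05), M01G5.1 (30.03), slc-25A21 (30.01) and tag-343 (30.01). Just outside were Y48B6A.1, which was under 30 by less than the rounding, ptr-25 and cfi-1 (both 29.99), and C34B2.9 and T21C9.9 (both 29.98). Members of the list had a median -log10 q of 0.327 in the authors' column, and 100 of them (6.15%) reached 1.3, which corresponds to a q near 0.05. These were the 100 of highest pooled signal, down to 53.24, so the count restates the signal. The share over all pooled regions was not counted, so 6.15% cannot be called low or high. Outside coding exons the highest values were larger: 90.3 in coding exons, against 206.0 in introns and 188.4 in intergenic DNA away from promoters, each at 30 or more. Reproducible regions numbered 6 of the 1626 in coding exons, against 55 of the 2156 intronic and 65 of the 2155 intergenic regions. As no reproducible region had a signal under 80.03, these counts concern only regions of high signal.

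Regions of both libraries overlapped 1173 of the 1626 coding-exon regions, or 72.1% (interval 69.9 to 74.3), against 24.7% (23.1 to 26.3) of those under 30. At the same signal minimum the share was 74.7% in introns and 76.3% in intergenic DNA. A further 162 coding-exon regions were overlapped in replicate 1 alone, 287 in replicate 2 alone and 4 in neither. The lists held 21953 regions for replicate 1 and 27731 for replicate 2. The share rose with the signal, from 57.2% of regions between 30 and 35 to 100% of the 50 regions at 60 or more. Among regions seen in both libraries, the log2 ratio of replicate 1 over replicate 2 had a mean of -0.01 and an SD of 0.55. The rank correlation between the 2 library signals over these regions was 0.01, against 0.10 in coding-exon regions under 30, 0.20 in introns and 0.25 in intergenic DNA. These are descriptions over regions that share 2 libraries and were chosen on a pooled signal made from both.

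**Figure D2:**
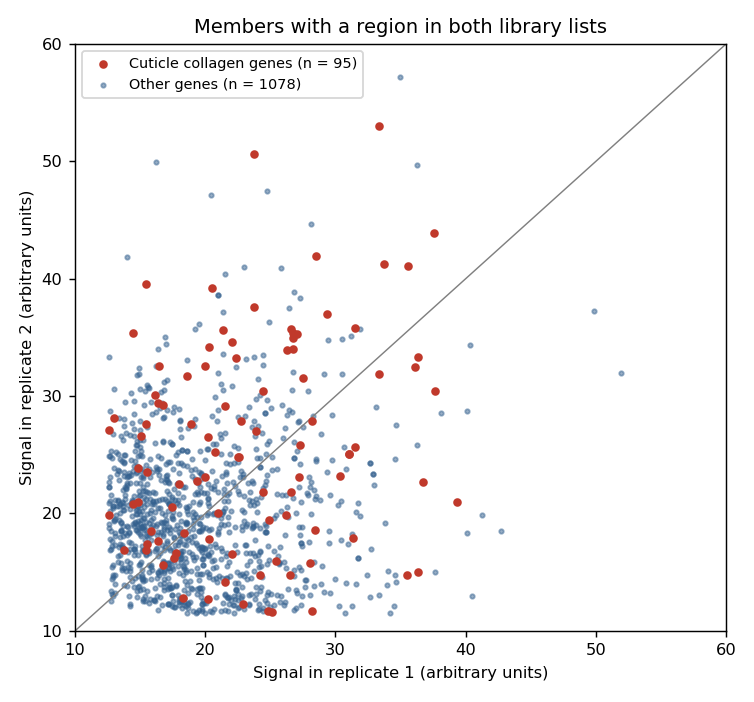
Signal in replicate 1 (horizontal axis) and replicate 2 (vertical axis), both in arbitrary units, of the 1173 coding-exon regions with a region in both library lists. Each point is a region, red for the 95 in cuticle collagen genes and blue for the 1078 in other genes, and the grey line marks equal values. The cloud shows no common trend. Over all regions with a value in the given library, including those absent from the other library and not drawn, collagen regions had higher medians. These were 22.7 in replicate 1 (97 regions) and 24.8 in replicate 2 (101 regions). In other genes they were 18.97 (1238 regions) and 19.86 (1359 regions). The highest value in each library lay outside collagen genes.

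The 1626 regions differed from other coding sequence in base composition. In the 201 bp centred on the summit, median GC content was 48.3% (interval of the median 47.8 to 48.8), against 43.8% in coding-exon regions under 30 and 39.8% over all eligible coding bases. Windows of 60% GC or more made up 0.355% of eligible coding bases and 6.15% of the regions. The density of regions went up at every step of GC: 17.2 per Mb of eligible bases under 35% GC, 29.7 from 35 to 40%, 68.6 from 40 to 45%, 191 from 45 to 50%, 484 from 50 to 55%, 1070 from 55 to 60% and 1714 at 60% or more. The regions under 30 went from 75.01 per Mb in the lowest step to 537 per Mb at 50 to 55% and then stood at 516 and 446 per Mb. GC content also went with the signal within the 1626 regions. Its median was 46.8% at signals of 30 to 35, 48.8% at 35 to 40, 49.8% at 40 to 50, 53.2% at 50 to 60 and 57.5% at 60 or more. Over all 1626 the rank correlation of signal and GC was 0.30, against 0.25 in introns and 0.29 in intergenic DNA. In the regions under 30 it was 0.06. Their signals were cut to a band of 20.5 to 30, so this value cannot be set against the others. What underlies this relation was not tested.

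**Figure D3:**
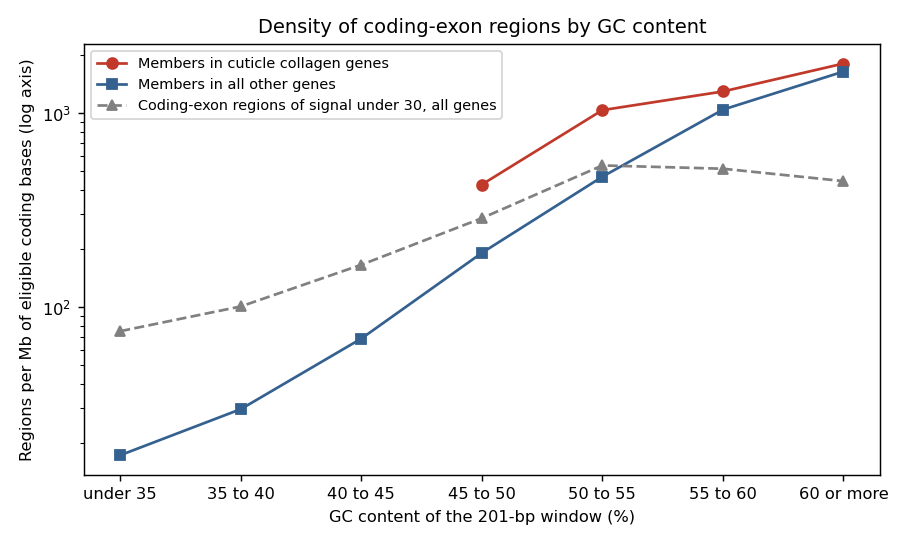
Coding-exon regions per Mb of eligible coding bases (log vertical axis) by GC content of the 201-bp window around the summit or base (horizontal axis, %). Red circles are the 1626 regions' part in cuticle collagen genes (no point where there was no region), blue squares their part in all other genes, and grey triangles the coding-exon regions of signal under 30. Collagen and other genes come close at high GC, with 1800 and 1636 per Mb at 60% or more.

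Of the 20 gene lists looked at, cuticle collagens had the highest share of genes with a region. A region lay in 90 of the 167 collagen genes with eligible coding bases, or 53.9% (interval 46.0 to 61.6), where 7.99% of all 16669 protein-coding genes with such bases held one. The collagen genes made up 0.574% of eligible bases and held 103 of the 1626 regions (6.33%), while 22 regions under 30 lay in them. Regions of both libraries overlapped 95 of the 103 (92.2%, interval 85.3 to 96.6), against 70.8% of the regions outside collagen genes. The median pooled signal was 42.8 in collagen genes and 35.65 outside, and the share in both libraries went with the signal. Outside collagen genes that share was 56.1% at signals of 30 to 35, 89.8% at 40 to 50 and 100% at 60 or more. Collagen and other regions were not compared at equal signal. In 77 genes there was 1 region and in 13 there were 2 or more.

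Among the collagen genes named for a body shape or skin phenotype, 16 of 21 with eligible bases held a region. Beside rol-1, ram-2 and dpy-17, the highest were sqt-1 (pooled signal 61.3, with 31.1 in replicate 1 and 25.1 in replicate 2), dpy-14 (58.8, with 30.4 and 23.2) and lon-3 (56.7, with 31.5 and 25.6). In rol-6, whose dominant allele is used widely as a marker that makes worms roll, the pooled signal was 52.7, with 24.4 in replicate 1 and 21.9 in replicate 2. Just below rol-6 stood bli-6 (52.29), rol-8 (50.05) and bli-1 (49.03 in the higher of its 2 regions). The lowest values were 43.2 in dpy-10, 36.2 in dpy-8, 35.9 in dpy-7, 35.31 in dpy-4, 33.4 in dpy-2 and 32.1 in dpy-9. The genes bli-2, dpy-3, dpy-5, dpy-13 and sqt-3 held none, although bli-2 and dpy-3 each held 1 region under 30. These named genes were picked as a group after the list's values had been seen.

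Most collagen regions lay on sequence rich in GGN codons. Over the 201-bp windows, 29.5% of in-frame codons were GGN and 22% were CCN, against 7.19% and 7.44% in the regions of other genes. Per window the GGN share ran from 0 (col-17) to 39.4%, with a median of 30.3%. The 22 collagen regions under 30 had much the same composition, with 29.0% GGN and 20.2% CCN. The hexamer CCAGGA, a proline codon followed by a glycine codon when in frame, was in 97 of the 103 windows, on either strand, and in 20 of the 22 windows under 30. Of the 103 regions, 60 lay in the last coding exon and 52 in coding exon 2, which can be the same exon. The median relative position in the coding sequence was 61.7%. Some collagen genes are near copies of each other, and reads from such stretches cannot be assigned with certainty: 6 of the 103 windows had under 90% of their 31-base words unique in the genome, with col-179 lowest at 35.7%, followed by col-180 at 50.3% and col-95 at 78.4%. Without windows under 90% unique, the share of collagen genes with a region was 50.3%.

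Set against other coding sequence of the same GC content, the collagen genes stood out far less. At the density found in other genes per base, their length would have held 8.80 regions, and the 103 found stood at 11.7 times that number. At the density of other genes in the same 2.5-point steps of GC, it would have held 86.9, and the 103 found stood at 1.19 times that number. The ratio differed between steps of GC, but the lower steps held few collagen regions. Collagen genes held 428 regions per Mb at 45 to 50% GC and 1035 at 50 to 55%, against 190 and 470 in other genes. The collagen densities rest on 5 regions in 11.69 kb and 20 regions in 19.32 kb. At 55 to 60% the densities were 1292 and 1041, and at 60% or more 1800 and 1636. Below 45% collagen genes held none. Over all their eligible bases, collagen genes with a region did not have a higher GC content than those without: the medians were 55.2% and 55.7%. They did have more eligible bases, with a median of 576.5 against 448. Within collagen genes, the windows of the 103 regions had a median GC content of 59.7%, against 55.2% over the eligible bases of the list. The calculation at equal GC was chosen after the GC content of the regions had been seen, and it has no error estimate since genes are not replicates.

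The other lists with the highest shares were those of large structural proteins. Of the genes for adhesion and giant cytoskeletal proteins, 24 of 76 held a region (31.6%, interval 21.4 to 43.3), with 68 regions in all. Of the muscle genes, 17 of 64 did (26.6%, 16.3 to 39.1), with 35 regions. Length enters these shares, and per Mb the lists had 153 and 142 regions, against 98.8 over all eligible bases. The number found over the number at equal length was 1.55 and 1.44, and at equal GC it was 1.07 and 1.03. The highest muscle region lay in unc-54, the major myosin heavy chain of body wall muscle (pooled 57.6, with 27.5 in replicate 1 and 27.4 in replicate 2). It was followed by unc-95 (49.3, a LIM-domain protein of muscle attachments), pat-2 (45.6, an alpha integrin) and unc-52 (44.2, perlecan). In the adhesion list cdh-12, a cadherin gene, stood highest at 61.4, with 41.2 in replicate 1 and 19.9 in replicate 2. Next were let-2 (58.2), a type IV collagen of basement membranes, hmr-1 (51.9), the classical cadherin, and spc-1 (48.8), alpha spectrin.

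Genes of chromatin and transcription regulators held a region in 30 of 154 cases (19.5%, interval 13.6 to 26.6), with 42 regions. Behind swsn-1 these were led by cbp-1 (55.8), the CBP/p300 acetyltransferase, dpy-21 (55.3), a histone demethylase of dosage compensation, and set-16 (52.2), an H3K4 methyltransferase. At equal GC the ratio for this list was 0.89. The other lists with a region in some genes were germline (16 of 110 genes), RNA processing (13 of 91), tubulins and motors (7 of 43), translation factors and tRNA synthetases (9 of 65), chaperones (10 of 75), nuclear pore (5 of 44), neuronal function (21 of 239), membrane trafficking (10 of 117), metabolism (22 of 267), homeobox (7 of 92), ribosomal proteins (1 of 28) and neuropeptides (2 of 83). Histones had 2 of 10. At equal GC the ratio was 1.75 for chaperones, with 12 regions found, 0.65 for membrane trafficking with 10, 0.53 for nuclear pore with 6 and 0.72 for germline with 16. It lay between 0.91 and 1.34 in the other lists of this group apart from ribosomal proteins (0.71, 1 region) and histones (2.25, 2 regions). Among the higher of these regions were npp-11 (60.4), a nuclear pore protein, snx-14 (60.3), a sorting nexin, smg-6 (51.4) of nonsense-mediated decay and mex-3 (48.5), an RNA-binding protein of the early embryo. Of the homeobox genes, zag-1 (43.3), zfh-2 (38.7) and unc-30 (38.1) stood highest, and unc-30, which specifies GABAergic motor neurons, had a region in replicate 1 (26.4) and none in replicate 2.

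Large families of sensory and fast-evolving genes had the lowest shares, just below the 2.41% of neuropeptide genes. Of the chemoreceptor genes 16 of 1264 held a region (1.27%, interval 0.725 to 2.05), of the F-box and MATH genes 8 of 369 (2.17%) and of the nuclear hormone receptor genes 6 of 270 (2.22%), against 7.99% of all genes. The median GC content of their eligible bases was 35.3%, 37.3% and 37.8%. Found over the number at equal length, the ratio was 0.23 for chemoreceptors, 0.40 for F-box and MATH genes and 0.27 for nuclear hormone receptors. At equal GC it was 0.65, 0.89 and 0.47. The highest regions in these lists were srw-85 (64.4, with 34.7 in replicate 1 and 27.5 in replicate 2), bath-47 (50.5) and nhr-277 (42.4).

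**Figure D4:**
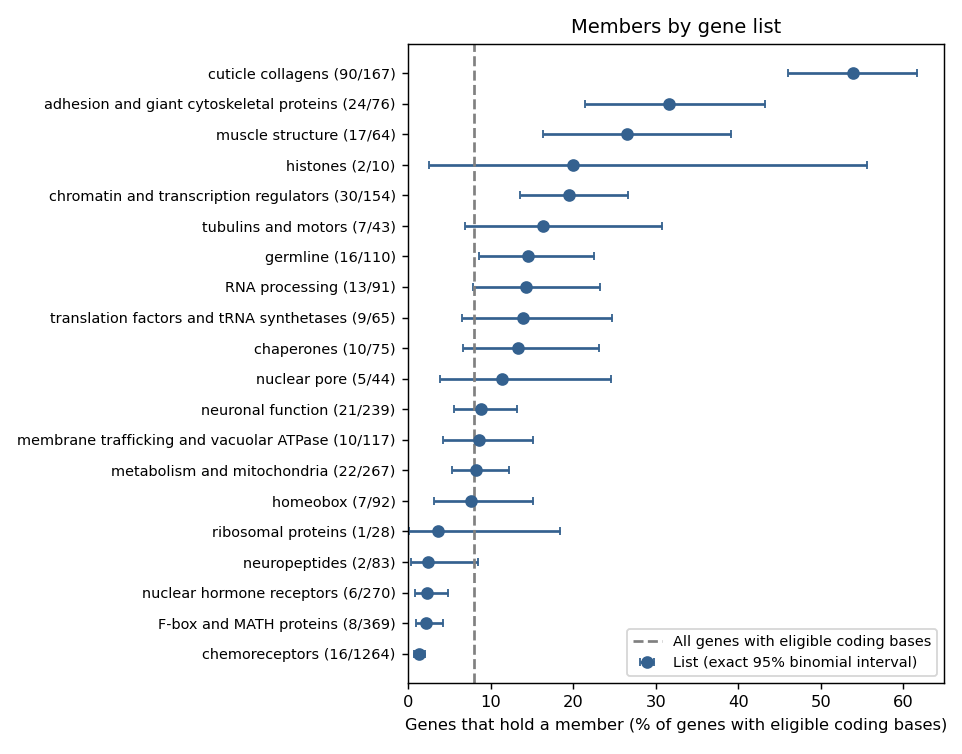
Share of genes that held a coding-exon region of signal 30 or more (horizontal axis, % of the genes with eligible coding bases) in each of 20 gene lists, with the counts in the row labels. Bars are exact 95% binomial intervals over genes, and the dashed line marks 7.99%, the share over all genes. Cuticle collagens stand at 53.9% and chemoreceptors at 1.27%.

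Regions were spread over 1332 genes, of which 1124 held 1, 160 held 2, 30 held 3, 7 held 4 and 11 held 5 or more. Of all regions, 213 had another within 1 kb. The gene with most was vab-10, a spectraplakin that links the cytoskeleton to epidermal attachments, with 9 regions of pooled signal 33.3 to 47.2. It was followed by let-805, the epidermal attachment protein myotactin, with 8 between 31.2 and 40.6. In both genes the regions were spread over several exons along the gene, with some side by side. In let-805 regions of both libraries overlapped 4 of 8, against 8 of 9 in vab-10. Where neighbours lay close they could share 1 library region: in the whole set 84 regions shared one in replicate 1 and 52 in replicate 2.

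In picd-1, with 6 regions, 1 region stood apart at 72.1 (24.8 in replicate 1 and 47.5 in replicate 2), and the other 5 lay between 32.4 and 46.95. The chromodomain helicase gene chd-7 also held 6, up to 50.5. Genes with 5 were cdh-12, let-2, mlt-11, tln-1, F30H5.3, dig-1 and unc-22. The first 6 of these encode a cadherin, a type IV collagen, a papilin-like protein, talin, a Kunitz-domain protein and a giant extracellular matrix protein in that order. The 5 regions of unc-22, which encodes the giant muscle protein twitchin, had pooled signals of 30.1 to 35.8. In the other 10 genes with 5 or more, the counts per 10 kb of eligible coding bases ran from 1.28 in dig-1 to 10.5 in F30H5.3 and 10.5 in picd-1. Median GC content of the windows was 52.2% in picd-1, against 43.3% over the gene's eligible bases. In vab-10 it was 51.7% against 48.8%, and in let-2 both were 55.7%. In tln-1 the windows had 50.8% and the eligible bases 51.2%.

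**Figure D5:**
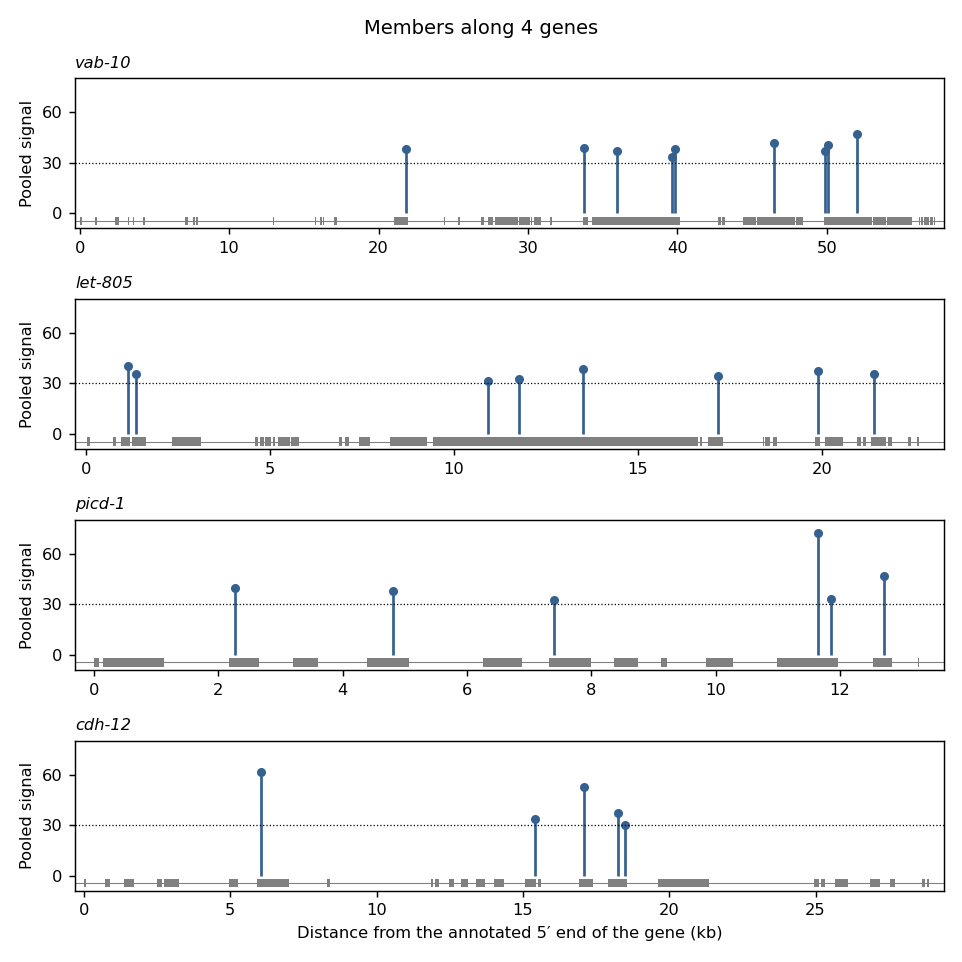
Pooled signal (vertical axis, arbitrary units) of the coding-exon regions along vab-10, let-805, picd-1 and cdh-12, by distance from the annotated 5′ end of the gene (horizontal axis, kb). Stems mark summits of regions at 30 or more, grey boxes coding segments of all transcripts and the dotted line the minimum of 30. The regions of vab-10 stay between 33.3 and 47.2, while picd-1 has a region at 72.1 and cdh-12 regions at 61.4 and 52.4.

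Coding exons with a region were long. The median exon length was 440 bp (interval of the median 411 to 466), against 340 bp for regions under 30 and 283 bp over eligible bases. Outside collagen genes it was 411 bp. Density went from 46.9 per Mb in exons under 100 bp and 59.6 at 100 to 200 bp to 91.8 at 200 to 500 bp and 170 at 500 to 1000 bp, and was 157 at 1000 to 2000 bp and 117 at 2000 bp or more. Longer exons were also richer in GC, and in exons under 200 bp the regions still had a GC content of 42.04%, against 39.8% for regions under 30 and 37.3% for eligible bases. In exons of 1000 bp or more the values were 50.3%, 47.3% and 43.8%. Position along the coding sequence differed little: the median was 59.0% of the way from the start codon, against 59.6% in regions under 30 and 57.9% over eligible bases. The last coding exon held 18.8% of the regions (interval 16.95 to 20.81), against 17.2% (15.8 to 18.7) of those under 30 and 15.5% of eligible bases, and 16.2% without collagen genes.

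With a median width of 424 bp, many regions reached beyond their exon. The whole of the region was coding in 443 cases (27.2%), against 488 (17.97%) of the regions under 30. The median distance from the summit to the nearer exon end was 123 bp, against 86 bp. In 151 cases (9.29%) the summit also lay in an intron or UTR of another transcript, and in 8 cases in a non-coding RNA gene. Under 90% of the window was unique in the genome for 39 regions (2.40%), against 2.84% of the regions under 30, 10.8% in introns and 9.61% in intergenic DNA.

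Sequence words were counted in the same 201-bp windows, on both strands, and compared with windows at every 200 bp of eligible coding sequence. A match describes the letters and is not a binding site. The homeodomain core TAATTA was in 63 windows, or 3.87% (interval 2.99 to 4.93), against 4.60% of regions under 30 and 5.50% of eligible windows. The longer TTAATTAA, which contains it, was in 0.677%, 0.700% and 0.612%. In introns TAATTA was in 8.44% of regions and in intergenic DNA in 7.19%. GAGAGA was in 10.5% (9.01 to 12.1) of the coding-exon windows, 10.3% of those under 30 and 10.0% of eligible windows, against 20.5% in introns and 29.7% in intergenic DNA. The share in eligible coding sequence lay above the interval for TAATTA and inside it for GAGAGA. The intervals treat regions as separate, although 213 of them lay within 1 kb of another, so this is a description and not a test. No background windows were counted for introns or intergenic DNA, so their shares cannot be read against their own sequence.

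The words with GC-rich letters were more frequent than in eligible windows. CACGTG was in 8.55% (7.24 to 10.0), against 6.15% of regions under 30 and 4.73% of eligible windows, and CAGCTG in 11.01% (9.53 to 12.6), against 8.17% and 6.73%. Outside collagen genes CACGTG was in 7.88% and CAGCTG in 9.26%, against 18.45% and 36.89% of collagen windows. CCAGGA was in 17.2% (15.4 to 19.1), against 11.1% and 8.85%, and in 12.02% outside collagen genes. The AT-rich TGATAA was less frequent, in 9.84% (8.44 to 11.4), against 13.8% and 17.9%. TGACTCA (1.78%, 1.47% and 1.89%), GAAGAA (28.4%, 29.9% and 31.4%) and CAACAA (20.6%, 22.3% and 22.8%) differed less, in the order regions, regions under 30 and eligible windows. GC content was higher in the regions than in eligible sequence, as were the shares of the 3 GC-rich words, while the shares of TGATAA and of TAATTA, which has no G or C, were lower. TTAATTAA, also without G or C, was not lower, at 0.677% (11 windows) against 0.612%. The part of GC content in these shares was not tested.

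Genes with a coding-exon region often had a promoter region too. Of the 1332 genes, 491 had a region of 30 or more within the promoter window that the selection left out, or 36.9% (interval 34.3 to 39.5). The share was 29.3% (27.2 to 31.4) of the 1853 genes with coding-exon regions under 30 alone, 19.5% of the 13484 genes with eligible bases and no coding-exon region, and 22.0% of all protein-coding genes. The median coding length of these 4 sets was 1766, 1488, 1017 and 987 bp in the same order. In collagen genes no such difference could be seen: 14 of the 90 with a coding-exon region had a promoter region (15.6%, interval 8.77 to 24.7), against 16 of the 77 without (20.8%), a share inside that interval. Outside collagen genes the share was 38.4%. Of the highest 6 regions, those in unc-1 and mnk-1 had a promoter region of 30 or more at the same gene, with signals of 39.1 and 65.8.

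By chromosome the density was highest on chromosome III at 135 regions per Mb of eligible bases, followed by I and II (both 107), IV (95.8), X (80.7) and V (76.8). Without collagen genes the order was III (132), I (103), II (97.95), IV (84.1), X (76.1) and V (73.4). Median GC content of eligible bases lay between 38.8% on V and 40.3% on I, II and III. The unc-1 region of highest signal lay 14.3 kb from lim-6 itself, and a further unc-1 region (pooled 30.4, with 18.1 in replicate 1 and 18.8 in replicate 2) lay 13.3 kb from it. They were the only regions of the 1626 within 50 kb of lim-6, where 13.37 kb of coding bases were eligible. That is 149.5 per Mb, against 98.8 over all eligible bases. Within 20 kb, with 4.64 kb eligible, the same regions gave 430.7 per Mb. A density from so few regions is uncertain. The tagged gene is carried on a transgene whose extent around lim-6 is not given in the sources used here, and its part in these values was not tested.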

How the data were processed

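The region lists used were on build ce11: the relaxed list of each library, the relaxed list of both libraries pooled, and the reproducible list. The authors deposited a signal value and a -log10 q value for each region, per the file layout, and derived the lists from alignments with a control alignment, per the labels' accompanying derivation notes. The sources used here name no aligner or peak caller and give no read depth. The reproducible list was derived from the library and pooled lists, per the same notes.

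Summits were placed on the Ensembl 115 annotation, and GC content, words and uniqueness (31-base words) were read from the RefSeq WBcel235 genome within 100 bp of each summit. Library regions counted when they overlapped by 1 bp or more. The lookup of coding exons was run on positions drawn from the same annotation. That checks the lookup alone, and not the choice between coding exon and promoter. Python 3.11.15, pandas 2.3.3, numpy 2.4.6, SciPy 1.17.1 and matplotlib 3.10.9 were used.

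The regions and the 20 gene lists were chosen with earlier results of these data known. Lists were built from gene symbols and corrected after their counts had been seen, by removing symbols that did not belong. In the collagen list 6 such genes, none with a region, were removed on their RefSeq products, and with them the share was 52.0% (90 of 173). Genes named in the text are those of the 20 highest regions, every reproducible region, the 10 genes with most regions, up to 4 per list by highest signal, and 5 on each side of the minimum. The named cuticle collagens were added after their values had been seen. Build ce10 lists repeat the same libraries and were not used. Alternatives were another signal minimum, promoter window, overlap rule and window, each library alone, windows at least 90% unique, and leaving out collagen genes, which was added after seeing the data.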

Additional observations from a re-analysis of the deposited data

How the results depend on the processing

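With the signal minimum lowered to 20, which takes in all pooled regions, there were 4342 coding-exon regions, 42.5% of them in both libraries, with a median GC content of 45.3%, a median exon length of 372 bp and 32.4% of genes with a promoter region. With a minimum of 40 there were 471 regions, 93.0% in both libraries, with 50.8% GC, an exon length of 532 bp, 22.1% in the last coding exon, 13.2% with GAGAGA and 2.12% with TAATTA. A promoter window of 2000 bp upstream to 1000 bp downstream left 1065 regions, 69.8% in both libraries, at a median relative position of 61.3%, with 15.3% in the last coding exon and 39.6% of genes with a promoter region. The share in both libraries was 65.01% when each region had to overlap by 50% and 48.8% when library summits had to lie within 100 bp. Within 50 bp of the summit GC content was 49.5%, GAGAGA was in 5.47% and TAATTA in 1.35%. Without cuticle collagen genes, an alternative added after seeing the data, the share in the last coding exon was 16.2%.

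Regions of each library alone, taken down to the same number as the pooled list at 30 or more, gave a median GC content of 46.3% to 47.3%, an exon length of 406.5 to 436.5 bp and a promoter share of 34.25% to 34.97%, the lowest each time without replicate 2. The share of collagen genes with a region was 43.1% without replicate 2 and 47.9% without replicate 1, against 8.06% and 8.17% of all genes. It was 33.5% at a minimum of 40, against 2.63% of all genes. The share in both libraries has no value from 1 library. No paired analysis was possible because the 2 libraries form 1 group. In all, 57 of the recomputed values moved by less than their counting interval (the number of regions by less than 1.5 times) and 27 by more. Read depth is unknown, and the cause of the shifts was not tested.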
